A study of Mus musculus with 2 samples.

Results

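The 10 genes described here encode the receptors through which B cells receive the survival ligands BAFF and APRIL, and members of the BCL2 family that decide whether a B cell lives or dies. They were chosen by name among the 31053 genes of the count tables. The 3 receptors were Tnfrsf13c (BAFF receptor), Tnfrsf13b (TACI) and Tnfrsf17 (BCMA). The 5 anti-apoptotic genes were Bcl2, Bcl2l1 (BCL-XL), Mcl1, Bcl2a1b and Bcl2a1d (copies of A1), and the 2 pro-apoptotic genes were Bcl2l11 (BIM) and Bax. Their levels were measured over heart B cells of each library, in transcript classes of these cells, and as a balance of pro- to anti-apoptotic genes.

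BAFF, made largely by stromal and myeloid cells, is bound by all of the 3 receptors, and newly formed B cells that reach the spleen need its signal through the BAFF receptor to mature. The receptor is known to act through noncanonical NF-κB and PI3 kinase, which raise or stabilize anti-apoptotic proteins. At the mitochondrion, BCL2, BCL-XL, MCL1 and A1 hold BAX and its relatives in check, while BIM and other BH3-only proteins bind and occupy these inhibitors, so that free BAX permeabilizes the outer membrane and caspases are activated. B1 cells are a separate lineage of largely fetal origin that depends less on BAFF, and plasma cells use BCMA in place of the BAFF receptor.

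The study sorted live B cells from hearts of wild-type C57BL6/J mice on the same day. The neonatal library came from mice of 2 weeks (15 days in the sample title), with males and females pooled, and the adult library from males of 8 weeks. The hearts of 6 mice were pooled for each age, in 2 tubes of 3 hearts, and each pool gave 1 Chromium Single Cell 3′ v3 library. Age, sex and library therefore cannot be told apart between the pools, no test across samples was possible, and no difference given here has a replicate check.

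A unique molecular identifier (UMI) marks 1 captured mRNA molecule. Cells were droplets with at least 2000 gene UMIs, at most 10% of them mitochondrial, and at least 1 UMI of Cd79a, which encodes a signalling chain of the B cell receptor. This kept 2077 neonatal cells with a median of 6000 UMIs, 16403180 in all, and 3611 adult cells with a median of 6131 UMIs, 34623240 in all. Of the B cell markers other than Cd79a, which the selection used, all were detected in each library, with Ms4a1 (CD20) at 1347 and 1154 CPM (UMIs per 1000000 gene UMIs) in neonatal and adult cells. Only 14 neonatal and 4 adult droplets failed the Cd79a criterion alone. The summed macrophage and monocyte markers stood at 94.5 CPM in neonatal and 17.4 in adult cells. At 61 neonatal and 45 adult cells the barcode held at least 500 UMIs in both libraries, and values without them are given where they differ. Doublets were not removed.

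Levels are given in CPM, the UMIs of a gene summed over the cells of a group per 1000000 gene UMIs of these cells. The log2 ratio is adult over neonatal unless stated, and brackets hold exact 95% intervals, which cover counting error only. A gene was counted as higher or lower when it differed at least 1.5-fold and had at least 100 UMIs over both groups. Every member but Tnfrsf17 reached 100 UMIs between the libraries.

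Of the 9 members with enough UMIs, 3 were at least 1.5 times higher in the adult library, where 6.49% of 9830 genes were, and 2 were at least 1.5 times lower, where 11.0% were. All of these 5 are anti-apoptotic. Bcl2, Bcl2a1b and Bcl2a1d were higher in adult cells, and Mcl1 and Bcl2l1 were lower. The receptors Tnfrsf13c and Tnfrsf13b and the pro-apoptotic Bcl2l11 and Bax differed by less than 1.5-fold. The median log2 ratio of the 9 members was -0.03, beside -0.14 over all genes. Scaling to the median gene instead of the total raised every ratio by that shift, which left these 5 calls in place and turned Tnfrsf13c to 0.11 and Bcl2l11 to 0.06.

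**Figure D1:**
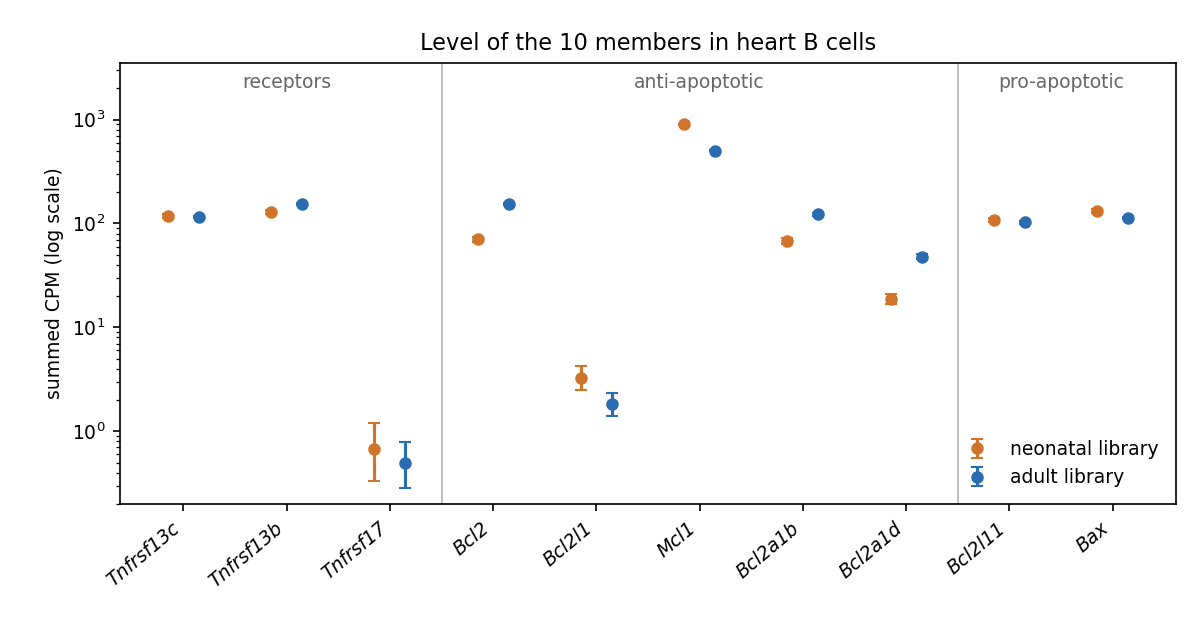
Level of each member in CPM (logarithmic axis) over all B cells of the neonatal (orange) and adult (blue) library, with exact 95% Poisson intervals for counting error. Mcl1 was at 898 in neonatal and 500 in adult cells, and Bcl2 at 70.6 and 155, while Tnfrsf13c, Bcl2l11 and Bax stood near 100 in each library.

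Tnfrsf13c, the receptor specific for BAFF, was at 118 CPM in neonatal and 116 in adult cells, a log2 ratio of -0.03 (-0.11 to 0.05). The levels overlapped within counting error, and at 2000 UMIs per cell the transcript was found in 20.2% of neonatal and 18.9% of adult cells. Of the 18 droplets without Cd79a, 0 held a UMI of it, which allows a share of up to 16.7%. Tnfrsf13b, which binds BAFF and APRIL and restrains B cell numbers in mice, was at 128 in neonatal and 154 in adult cells, a log2 ratio of 0.27 (0.19 to 0.34). There were thus 1.09 UMIs of Tnfrsf13b for each UMI of Tnfrsf13c in neonatal cells and 1.33 in adult cells.

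Tnfrsf17 was nearly absent outside cells with plasma cell transcripts. It had 11 UMIs in 2 neonatal cells and 17 UMIs in 5 adult cells. Cells with at least 10 UMIs of Jchain, the joining chain of secreted antibody, numbered 3 neonatal and 8 adult, and they held 11 of the 11 neonatal and 16 of the 17 adult Tnfrsf17 UMIs. The ligands themselves were at the edge of detection in these cells. Tnfsf13b (BAFF) had 1 neonatal and 4 adult UMIs, and Tnfsf13 (APRIL) had 0 in each library.

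Bcl2, the inhibitor after which the family is named, was at 70.6 CPM in neonatal and 155 in adult cells, a log2 ratio of 1.13 (1.04 to 1.22). With each cell thinned to 2000 UMIs, at least 1 UMI of Bcl2 was found in 10.3% of neonatal cells (9.0% to 11.6%, exact binomial) and 23.2% of adult cells (21.8% to 24.6%). The UMIs of Bcl2 were spread over many cells, and the 1% of cells with most of them held 12.4% of the neonatal and 9.21% of the adult UMIs. Of the 18 droplets without Cd79a, whose median was 5975 UMIs in the neonatal and 7430 UMIs among the adult ones, 3 held a thinned UMI of Bcl2 and 9 held 1 of Mcl1, genes that many cell types express. An exon of the gene D630008O14Rik overlaps Bcl2 by 497 bases on the opposite strand, and that gene had 10 neonatal and 90 adult UMIs. Whether the counting used strand is not given in the sources used here.

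Mcl1, a short-lived inhibitor whose mRNA and protein turn over quickly, was at 898 CPM in neonatal and 500 in adult cells, a log2 ratio of -0.84 (-0.88 to -0.81). It was the most abundant member in each library. At 2000 UMIs per cell it was found in 77.0% of neonatal cells (75.2% to 78.8%) and 60.0% of adult cells (58.3% to 61.6%). The unthinned shares were 97.2% and 90.8%. Free RNA, estimated from near-empty droplets, would put a UMI of Mcl1 in 2.06% of neonatal and 1.82% of adult cells at 2000 UMIs. For any other member this expected share of cells was at most 0.483%.

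Immediate-early and heat shock genes that rise when tissue is dissociated moved mostly in the same direction as Mcl1. Of 12 such genes, 6 were at least 1.5 times lower in the adult library, where 11.0% of all genes were. None was higher, where 6.49% of all genes were. Among the lower genes were Fosb, Egr1, Atf3 and Zfp36. Dusp1 went the other way, at 0.30 (0.23 to 0.36), and Junb at -0.08 and Ier2 at -0.14 differed little. The summed level of the 12 genes was 4779 in neonatal and 3867 in adult cells. In the cells of each library with a share of these transcripts at or below the common median, 963 neonatal and 1881 adult cells, the log2 ratio of Mcl1 was -0.85. In the same cells it was 1.47 for Bcl2a1b and 2.17 for Bcl2a1d. Such a cut need not make the shares equal between the libraries, and the part of dissociation in these ratios was not tested.

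The A1 copies Bcl2a1b and Bcl2a1d, NF-κB-inducible inhibitors of the BCL2 family, were higher in adult cells. Bcl2a1b was at 68.0 in neonatal and 123 in adult cells, a log2 ratio of 0.85 (0.75 to 0.95). Bcl2a1d was at 19.0 and 48.0, a log2 ratio of 1.34 (1.16 to 1.52). At 2000 UMIs per cell, Bcl2a1b was found in 7.66% of neonatal and 16.2% of adult cells, and Bcl2a1d in 2.21% and 6.73%. A few neonatal cells carried much of the neonatal level. The 21 cells with most Bcl2a1b held 28.3% of its neonatal UMIs, and 1 cell alone held 81 UMIs or 7.26%, whereas the 37 adult cells with most held 15.6%. In the 60 neonatal and 156 adult cells with at most 5% mitochondrial UMIs, the log2 ratio turned to -0.70 for Bcl2a1b and -0.0788 for Bcl2a1d.

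The copies are nearly the same in the stretch that this chemistry reads. The last 300 bases of their longest transcripts differ at 6 of 302 aligned positions, and those of Bcl2a1d and a further copy, Bcl2a1a, at 2 of 300. Bcl2a1a had 25 neonatal and 11 adult UMIs. How reads that fit several copies were counted is not given in the sources used here. The level of each copy and the split between the copies are therefore uncertain. Bcl2a1b also shares 401 exon bases on its own strand with Gm29094, which had 0 neonatal and 3 adult UMIs.

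Because Bcl2a1b and Bcl2a1d were both higher in adult cells and in cells with both Cr2 and Fcer2a, described further on, the bases before their starts are shown. Each sequence ends at the base before the start of the gene in GENCODE, and the capitals mark the longest run of identical bases, 84, that they have in common.

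Bcl2a1b, GRCm38.p6 chr9:89199023-89199208, plus strand: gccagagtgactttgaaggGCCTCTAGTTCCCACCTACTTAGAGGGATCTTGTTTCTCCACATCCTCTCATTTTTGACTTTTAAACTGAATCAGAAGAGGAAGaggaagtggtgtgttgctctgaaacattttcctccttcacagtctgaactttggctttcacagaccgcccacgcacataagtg

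Bcl2a1d, GRCm38.p6 chr9:88731915-88732100, minus strand: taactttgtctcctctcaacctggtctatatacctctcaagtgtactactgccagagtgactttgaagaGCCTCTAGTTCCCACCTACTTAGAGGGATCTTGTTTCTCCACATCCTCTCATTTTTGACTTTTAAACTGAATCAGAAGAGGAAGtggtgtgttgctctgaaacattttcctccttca

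The sequences are from RefSeq, which has a window of 250 bases before and 50 bases after the start for all 10 members. The shared run begins 167 bases before the GENCODE start of Bcl2a1b and 117 bases before that of Bcl2a1d, and RefSeq places both starts further inside the genes. The letters GAGGAAGT hold the core bound by ETS factors and were searched on both strands after the sequences had been read. They occur in the windows of Bcl2a1b and Bcl2a1d and of no other member, and in 3.2% of all 32851 windows. Since both sequences had been read first, a match in both was known in advance. The letters also occur in the windows of Bcl2a1a and another copy, Bcl2a1c. Bcl2a1a had 25 neonatal and 11 adult UMIs, and Bcl2a1c had 2 and 14. Over aligned positions the window of Bcl2a1d was 94.1% identical to that of Bcl2a1a and 70.6% to that of Bcl2a1b. The κB consensus, searched on both strands, was found in no window of a member except 1 of the 3 of Bcl2l1, and in 8.46% of all windows. The windows of Bcl2 and Mcl1 were rich in GC, with 76.0% and 65.7%, and those of Bcl2a1b and Bcl2a1d were not, with 46.7% and 44.3%, beside a median of 52.7%. These matches are a description of letters and were not tested as binding sites.

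Bcl2l1, whose product BCL-XL is known from activated and precursor B cells, was scarce. It was at 3.29 CPM in neonatal and 1.82 in adult cells, from 54 and 63 UMIs, a log2 ratio of -0.86 (-1.40 to -0.30). At 2000 UMIs per cell it was found in 0.67% of neonatal and 0.22% of adult cells. Its count as lower rests on few molecules, and in several smaller selections of cells it fell under 100 UMIs.

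The pro-apoptotic members were close to level. Bcl2l11, whose product BIM binds the whole set of inhibitors, was at 109 in neonatal and 103 in adult cells, a log2 ratio of -0.08 (-0.16 to 0.00). At 2000 UMIs per cell it was found in 15.8% and 15.9% of cells. Bax, the pore-forming effector, was at 133 in neonatal and 113 in adult cells, a log2 ratio of -0.23 (-0.31 to -0.16). An exon of Gm45808 shares 140 bases with Bax on the same strand, and that gene had 0 UMIs in each library.

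**Figure D2:**
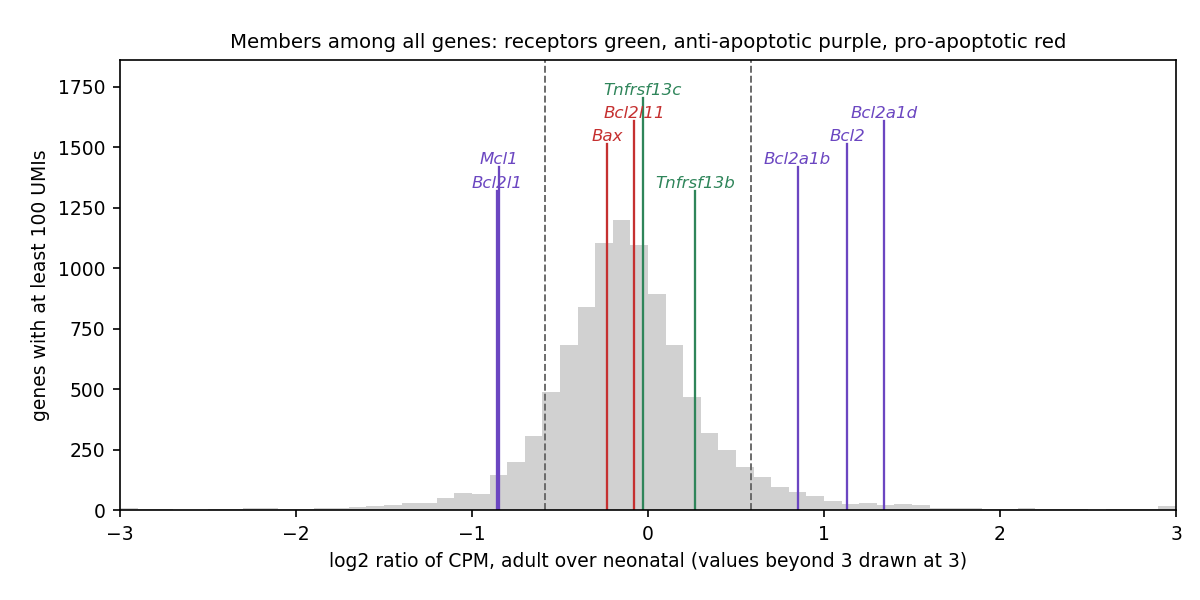
Distribution of the log2 ratio, adult over neonatal, over genes with at least 100 UMIs in the cells of both libraries (grey, genes with a UMI in each library), with the 9 members that reach this count as vertical lines and the 1.5-fold limits dashed. The anti-apoptotic members (purple) lie outside the limits, Mcl1 and Bcl2l1 to the left and Bcl2a1b, Bcl2 and Bcl2a1d to the right, and the receptors (green) and pro-apoptotic members (red) lie inside.

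The make-up of the anti-apoptotic transcripts differed more than their sum. Because the 3′ chemistry counts molecules at their ends, UMIs of different genes were added without correction for length. Reads that fit several A1 copies may have been counted unlike those of the other genes. Sums, shares and ratios that include Bcl2a1b and Bcl2a1d are uncertain to that extent. The 5 anti-apoptotic members together were at 1059 CPM in neonatal and 827 in adult cells. Mcl1 made up 84.8% of these UMIs in neonatal cells (84.3% to 85.3%) and 60.5% in adult cells (59.9% to 61.0%). Bcl2 made up 6.67% and 18.7%, and Bcl2a1b and Bcl2a1d together 8.21% and 20.6%. There were 12.7 UMIs of Mcl1 for each UMI of Bcl2 in neonatal cells and 3.24 in adult cells.

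Detection in single cells was also counted. At 2000 UMIs per cell, 63.4% of neonatal cells (61.2% to 65.4%) and 36.6% of adult cells (35.0% to 38.2%) held a UMI of Mcl1 and none of Bcl2, Bcl2a1b or Bcl2a1d. The converse, a UMI of at least 1 of these 3 and none of Mcl1, was found in 3.95% of neonatal cells (3.15% to 4.88%) and 15.1% of adult cells (14.0% to 16.3%). A cell without a UMI at this depth may still express the gene. These shares depend on how often each gene was detected by itself. Whether the genes exclude one another within cells was not tested.

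**Figure D3:**
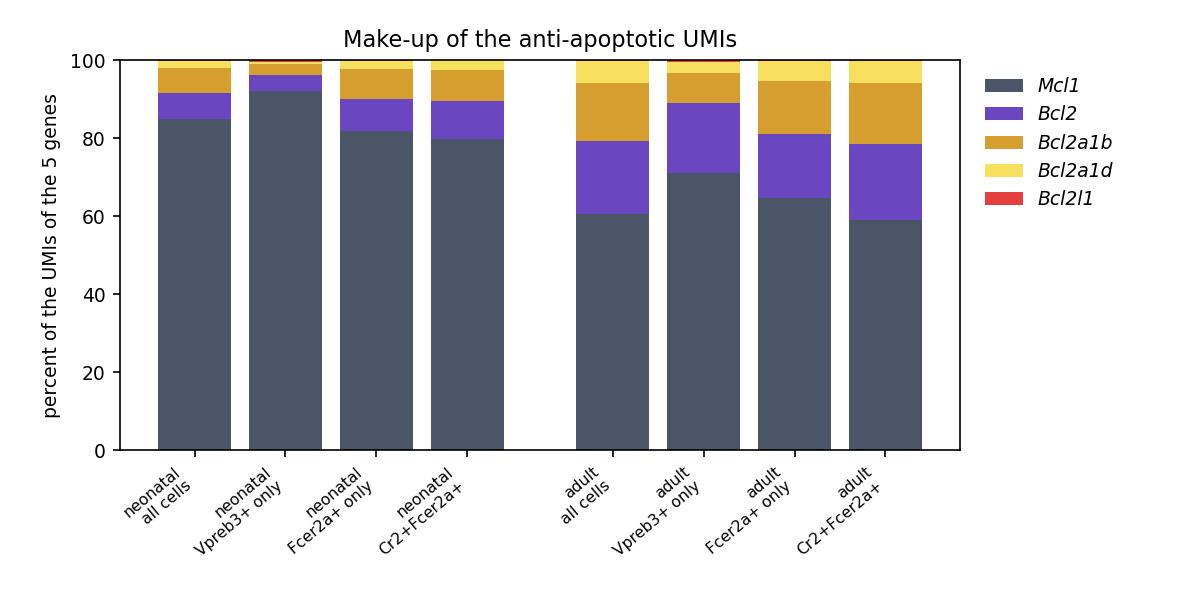
Percent of the UMIs of the 5 anti-apoptotic members that belong to each of them, for all cells and for 3 transcript classes of each library. Mcl1 (dark grey) takes 92.0% in neonatal cells with Vpreb3 only and 59.0% in adult cells with Cr2 and Fcer2a, and Bcl2 (purple), Bcl2a1b and Bcl2a1d (yellow) take most of the rest.

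The balance of pro- to anti-apoptotic transcripts depended on Mcl1. Bcl2l11 and Bax together gave 0.228 UMIs for each anti-apoptotic UMI in neonatal cells and 0.261 in adult cells, a log2 difference of 0.19 (0.13 to 0.26). Without Mcl1 the ratio was 1.501 in neonatal and 0.660 in adult cells, a log2 difference of -1.19 (-1.27 to -1.10), so the direction turned. Set against single inhibitors, there were 0.121 UMIs of Bcl2l11 for each UMI of Mcl1 in neonatal and 0.206 in adult cells, but 1.54 and 0.666 for each UMI of Bcl2. These are ratios of transcripts, and the proteins were not measured.

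Cells were next sorted by transcripts of 3 maturation markers. Vpreb3, which binds newly made immunoglobulin chains, marks newly formed B cells, while Cr2 (CD21) and Fcer2a (CD23) mark follicular cells. Cells with Vpreb3 and neither Cr2 nor Fcer2a, called Vpreb3+ here, numbered 749 neonatal (36.1%) and 267 adult (7.39%). Cells with both Cr2 and Fcer2a numbered 223 (10.7%) and 1372 (38.0%). A class needs transcripts to be caught, so depth enters its definition. With adult cells thinned to 2000 UMIs, 468 were Vpreb3+ and 326 held both Cr2 and Fcer2a. Missed transcripts can thus place a cell in the Vpreb3+ class. The median was 5275 UMIs in neonatal Vpreb3+ cells and 7163 in neonatal Cr2+Fcer2a+ cells, and 4213 and 9083 in the adult classes. In the adult library the Vpreb3+ cells also held more plasma cell transcripts, with Jchain at 757 CPM beside 17.4 in Cr2+Fcer2a+ cells. Without cells of at least 10 Jchain UMIs, 264 adult Vpreb3+ cells remained, and values without these cells are given where they change a count.

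In the neonatal library, 7 members had enough UMIs in the comparison of Cr2+Fcer2a+ with Vpreb3+ cells. Of these, 2 were at least 1.5 times higher in Cr2+Fcer2a+ cells, where 2.41% of 6232 genes were, and 1 was at least 1.5 times lower, where 3.69% were. Bcl2 and Bcl2a1b were higher and Tnfrsf13c was lower. The median log2 ratio was -0.20 over these members and -0.05 over all genes.

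In the adult library, 2 of 8 members were at least 1.5 times higher in Cr2+Fcer2a+ cells, where 8.35% of 8388 genes were, and 0 were at least 1.5 times lower, where 3.65% were. The higher members were Bcl2a1b and Bcl2a1d. Without the cells of at least 10 Jchain UMIs 3 members were higher, with Bcl2l11 as the third. The median log2 ratio was 0.26 over these members and 0.05 over all genes.

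**Figure D4:**
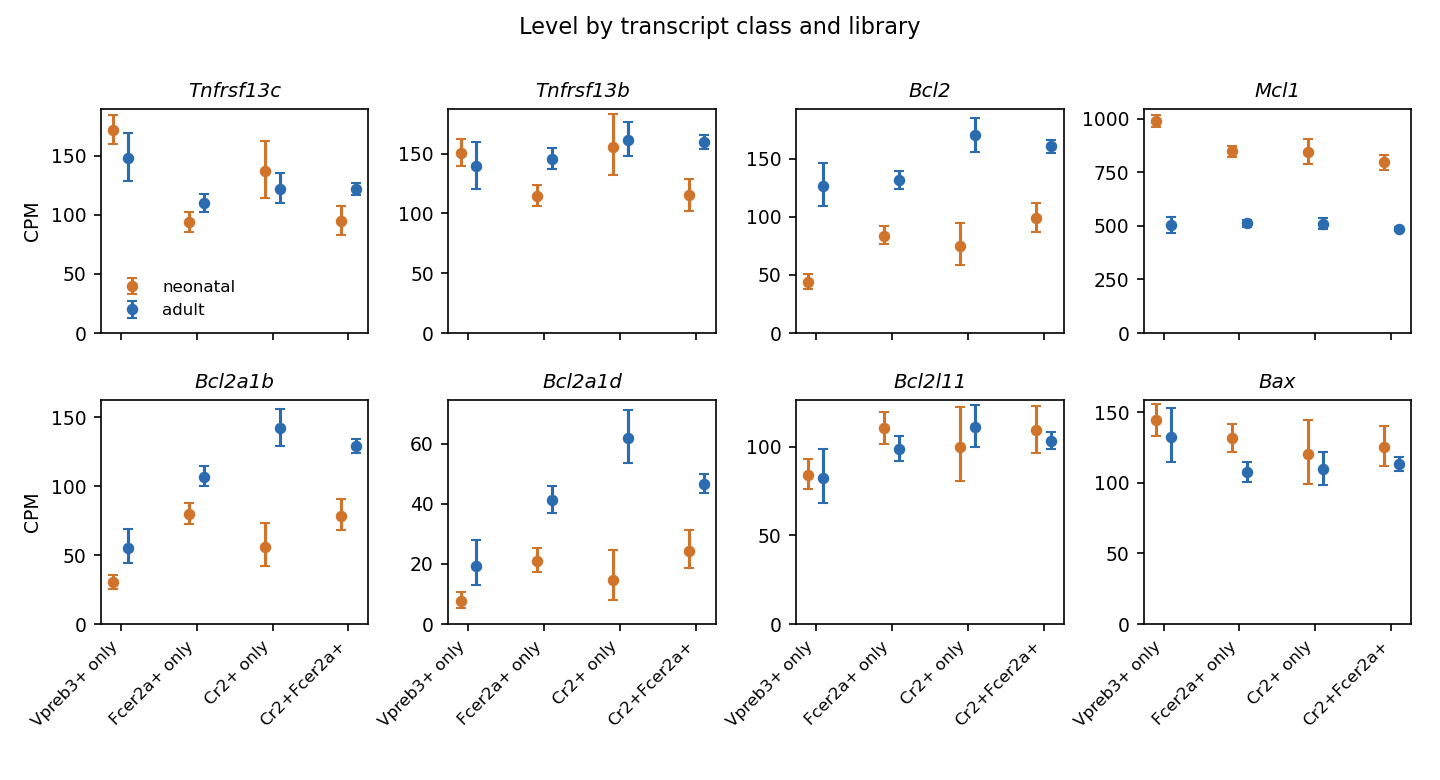
Level of 8 members in CPM, by transcript class, in the neonatal (orange) and adult (blue) library, with exact 95% Poisson intervals for counting error. Bcl2a1b stood lowest in Vpreb3+ cells of each library, at 30.2 and 55.5, and the adult level of Mcl1 lay between 486 and 511 in all 4 classes drawn while its neonatal level lay between 796 and 987.

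Tnfrsf13c stood at 172 CPM in neonatal Vpreb3+ cells and 94.6 in neonatal Cr2+Fcer2a+ cells, a log2 ratio of -0.86 (-1.08 to -0.65). In adult cells it was at 148 and 122, a ratio of -0.28 (-0.48 to -0.07). The BAFF receptor transcript was thus highest in the Vpreb3+ class of each library. Among cells of 4000 to 10000 UMIs only, the ratio was -0.91 in neonatal and -0.19 in adult cells. Tnfrsf13b stood at 151 and 115 in the neonatal classes, a ratio of -0.39 (-0.59 to -0.19), and at 139 and 159 in the adult classes, a ratio of 0.19 (-0.01 to 0.41).

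Bcl2 stood at 44.1 in neonatal Vpreb3+ cells and 99.0 in neonatal Cr2+Fcer2a+ cells, a log2 ratio of 1.17 (0.89 to 1.44). In adult cells it was at 127 and 161, a ratio of 0.34 (0.13 to 0.56). The level in adult Vpreb3+ cells was above that in neonatal Cr2+Fcer2a+ cells, and their intervals overlapped only slightly, at 109 to 147 and 87.1 to 112. The adult difference was absent among cells of at least 5000 UMIs, with 70 Vpreb3+ cells left, where the ratio was -0.04.

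Mcl1 stood at 987 in neonatal Vpreb3+ cells and 796 in neonatal Cr2+Fcer2a+ cells, a log2 ratio of -0.31 (-0.39 to -0.23). In adult cells it was at 504 and 486, a ratio of -0.05 (-0.16 to 0.06). Mcl1 therefore differed between the libraries far more than between the classes. There were 22.4 UMIs of Mcl1 for each UMI of Bcl2 in neonatal Vpreb3+ cells and 8.04 in neonatal Cr2+Fcer2a+ cells, and 3.97 and 3.02 in the adult classes.

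Bcl2a1b stood at 30.2 and 78.6 in the neonatal classes, a log2 ratio of 1.38 (1.06 to 1.70), and at 55.5 and 129 in the adult classes, a ratio of 1.22 (0.90 to 1.56). Bcl2a1d stood at 7.60 and 24.5 in the neonatal classes, a ratio of 1.69 (1.06 to 2.33) from 96 UMIs, and at 19.4 and 46.6 in the adult classes, a ratio of 1.26 (0.72 to 1.86). Among members with at least 100 UMIs in the comparison, Bcl2a1b had the widest difference in neonatal cells and Bcl2a1d in adult cells. Without barcodes found in both libraries, the ratio of Bcl2a1b was 1.62 in neonatal and 1.19 in adult cells. Macrophage markers summed to 49.1 CPM in neonatal Vpreb3+ cells and 135 in neonatal Cr2+Fcer2a+ cells. Without cells holding at least 2 UMIs of other cell type markers, the neonatal ratio was 2.12 for Bcl2a1b and 3 members were higher, with Bcl2l11 at 0.65, and where Pecam1 was not counted as such a marker it was 1.29 and 2 members were higher. Among cells of 4000 to 10000 UMIs the ratio of Bcl2a1b was 1.91 in neonatal and 0.85 in adult cells.

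The pro-apoptotic members differed by less than 1.5-fold between the classes. Bcl2l11 was at 84.3 and 109 in the neonatal classes, a log2 ratio of 0.38 (0.15 to 0.60), and at 82.6 and 104 in the adult classes, a ratio of 0.33 (0.06 to 0.61). The adult ratio rested in part on few cells, and without those of at least 10 Jchain UMIs it was 0.62. Bax was at 144 and 126 in the neonatal classes, a ratio of -0.20 (-0.40 to -0.0044), and at 133 and 113 in the adult classes, a ratio of -0.22 (-0.44 to -0.0032). With cells thinned to 2000 UMIs, the ratio of Bax turned to 0.37 in neonatal and 0.18 in adult cells. The ratio of pro- to anti-apoptotic UMIs was 0.213 in Vpreb3+ and 0.235 in Cr2+Fcer2a+ cells of the neonatal library, a log2 difference of 0.14 (-0.02 to 0.31). In the adult library it was 0.303 and 0.263, a difference of -0.20 (-0.40 to -0.01), and -0.09 without cells of at least 10 Jchain UMIs. Without Mcl1 it was lower in Cr2+Fcer2a+ cells of each library, by 1.20 on the log2 scale in neonatal and 0.71 in adult cells.

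The libraries differed within each class as well. Among Vpreb3+ cells, 2 of 7 members, Bcl2 and Bcl2a1b, were at least 1.5 times higher in the adult library, where 3.70% of genes were, and Mcl1 alone was lower, where 17.5% were. The log2 ratio was 1.53 (1.23 to 1.82) for Bcl2, 0.88 (0.46 to 1.29) for Bcl2a1b and -0.97 (-1.08 to -0.86) for Mcl1. Among Cr2+Fcer2a+ cells, 3 of 8 members were higher, where 7.67% of genes were, and 1 was lower, where 10.6% were. Here the ratio was 0.70 (0.51 to 0.89) for Bcl2, 0.72 (0.51 to 0.94) for Bcl2a1b, 0.93 (0.56 to 1.33) for Bcl2a1d and -0.71 (-0.78 to -0.64) for Mcl1. Among cells with Fcer2a only, 2 of 8 members were higher, where 4.17% of genes were, and 1 was lower, where 8.71% were, with 0.65 for Bcl2, 0.97 for Bcl2a1d and -0.73 for Mcl1, and Bcl2a1b at 0.42. Each library was then weighted to the same class mix, that of the cells of both libraries together. The ratio was 0.92 for Bcl2, 0.63 for Bcl2a1b, 1.13 for Bcl2a1d and -0.78 for Mcl1. For Bcl2l1 it was -0.47, within 1.5-fold. Each of these was nearer to 0 than without the common mix. Classes counted by their cells here and by their UMIs elsewhere, and the part of this was not tested.

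**Figure D5:**
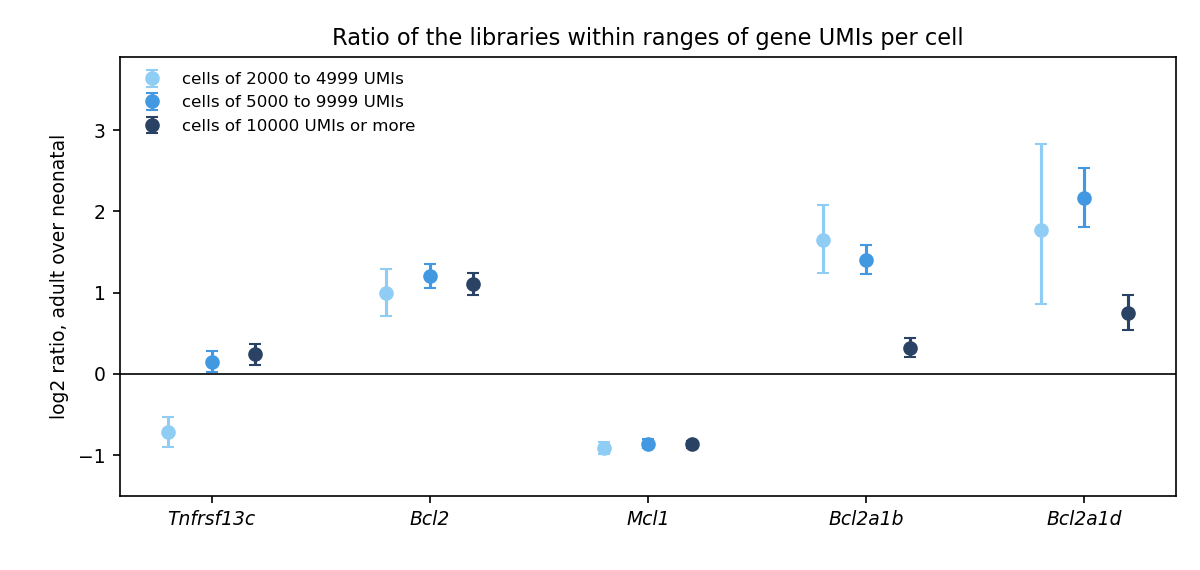
Log2 ratio, adult over neonatal, of 5 members within 3 ranges of gene UMIs per cell, with exact 95% intervals for counting error. Mcl1 and Bcl2 kept nearly the same ratio in each range, Bcl2a1b went from 1.65 in the shallowest to 0.32 in the deepest cells, and Tnfrsf13c from -0.72 to 0.24.

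The ratio between the libraries varied with depth per cell for some members and not for others. Cells were split at 5000 and 10000 UMIs. From the shallowest to the deepest range, 3, 3 and 2 of 8 members were higher in adult cells, where 4.73%, 4.93% and 5.95% of genes were, and 2, 1 and 1 were lower, where 15.7%, 14.0% and 9.92% were. The log2 ratio of Mcl1 was -0.91, -0.86 and -0.86, and that of Bcl2 was 0.998, 1.20 and 1.11. The ratio of Bcl2a1b was 1.65, 1.41 and 0.32, since its neonatal level was 23.3, 47.9 and 108 in these ranges and its adult level 72.9, 127 and 135. The ratio of Tnfrsf13c was -0.72, 0.15 and 0.24, with neonatal levels of 172, 122 and 94.1 and adult levels of 104, 135 and 111. The near equality of Tnfrsf13c over all cells thus joins ranges of depth that differed in direction. The ranges also differed in make-up. Transitional B cell markers summed to 5413, 3511 and 2672 CPM in neonatal cells and 2557, 2858 and 2686 in adult cells. B1 markers summed to 97.0, 197 and 2150 in neonatal cells and 60.8, 461 and 1265 in adult cells. The parts of depth and make-up were not tested.

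Leaving out cells with signs of another source widened the ratios of Bcl2a1b and Bcl2a1d. Without barcodes found in both libraries, the log2 ratio was 0.98 for Bcl2a1b and 1.52 for Bcl2a1d. Without cells holding at least 2 UMIs of macrophage, T or NK cell, neutrophil, endothelial or heart tissue markers, Pecam1 not counted since B cells express it, the ratio was 1.05 for Bcl2a1b, 1.71 for Bcl2a1d and -0.85 for Mcl1. Against only those neonatal cells with a Y-linked UMI and no Xist UMI, 3 of 8 members were higher in adult cells, where 6.51% of genes were, and 1 was lower, where 9.90% were. This gave 1.20 for Bcl2, -0.84 for Mcl1, 0.71 for Bcl2a1b and 1.18 for Bcl2a1d. Within the neonatal library, 0 of 8 members differed 1.5-fold between these 1279 cells and 323 cells with Xist and no Y-linked UMI, where 4.61% of 7611 genes did.

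B1 marker cells, with at least 3 of 8 B1 markers at 2000 UMIs, numbered 50 neonatal and 123 adult cells, and 103 and 264 more had exactly 2 markers. Against cells without any of the markers, 3 of 8 members were at least 1.5 times higher among neonatal cells, where 8.90% of genes were, and 1 of 8 among adult cells, where 6.54% were. In neonatal cells 0 were lower, where 19.7% of genes were. Bcl2a1d was higher in each, with a log2 ratio of 1.02 (0.33 to 1.65) in neonatal and 1.06 (0.81 to 1.30) in adult cells. Bcl2l11 had a ratio of 0.63 (0.39 to 0.87) and 0.55 (0.37 to 0.73). Tnfrsf13c went the other way, with -0.36 (-0.66 to -0.08) and -0.72 (-0.95 to -0.49), and in the adult library it was the only member at least 1.5 times lower, where 16.2% of genes were. The B1 marker cells were deep, with medians of 18656 UMIs in neonatal and 15795 in adult cells. Other markers were also higher in the neonatal ones than in cells without B1 markers, with macrophage markers at 453 and 25.9 CPM, neutrophil markers at 189 and 1.16, T and NK cell markers at 60.7 and 3.18 and dissociation genes at 7047 and 4326. Their part in these ratios was not tested. As the B1 marker cells were deep, all cells of at least 10000 UMIs were also set beside them. In neonatal B1 marker cells Bcl2a1d was at 23.0, Bcl2l11 at 154 and Tnfrsf13c at 99.3, beside 34.1, 130 and 94.1 in deep cells. In adult B1 marker cells they were at 77.0, 134 and 74.8, beside 57.4, 110 and 111. The neonatal directions of Bcl2a1d and Tnfrsf13c thus did not hold against deep cells.

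Cycling cells, with at least 3 of 8 cell cycle markers at 2000 UMIs, were few, 14 neonatal and 28 adult. They were deep, with medians of 27280 UMIs in neonatal and 24986 in adult cells, beside 6000 and 6131 in all cells. The part of depth in the ratios below was not tested. Set against all cells of the same library, 4 of 8 members were lower in neonatal cycling cells, where 33.7% of genes were. None was higher, where 18.1% were. The lower members were Mcl1, Bcl2, Bcl2a1b and Bcl2a1d, with Mcl1 at 489 and a log2 ratio of -0.88 (-1.10 to -0.67). Bcl2a1d had only 2 UMIs in these cells, and its interval holds 0. Plasma cell markers summed to 2672 CPM in them and 848 in all neonatal cells, and B1 markers to 3142 and 955, and their part was not tested. In adult cycling cells 1 of 8 was higher, where 17.9% of genes were, and 0 were lower, where 23.8% were. That gene was Tnfrsf13c, at 206 and a ratio of 0.83 (0.60 to 1.06).

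The rest of the pathway was given by fixed lists. Among 14 genes of receptor signalling, 0 were at least 1.5 times higher in the adult library and 2 were lower, beside 6.49% and 11.0% of all genes, so the lower share was near that of all genes. The lower genes were the survival kinases Pim1, at 567 and 321 CPM with a log2 ratio of -0.82, and Pim2, at 18.5 and 10.4 with -0.83. The NF-κB subunits Nfkb1, Nfkb2, Rel and Relb and the adaptors Traf2 and Traf3 stayed within 1.5-fold, with ratios from -0.46 for Relb to -0.04 for Nfkb2. Between the classes, 0 of these 14 genes were called in either library. Of all genes, 2.41% were higher and 3.69% lower in neonatal Cr2+Fcer2a+ cells, and 8.35% and 3.65% in adult ones.

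Of 7 other BH3-only genes, 5 had enough UMIs, and 2 were lower in adult cells and 0 higher, beside 11.0% and 6.49% of all genes. Bmf, which responds to loss of anchorage and survival signals, was at 17.4 and 6.99 with a log2 ratio of -1.32 (-1.57 to -1.07). Bbc3 (PUMA), a p53 target, was at 7.19 and 4.74 with -0.60 (-0.95 to -0.25). Pmaip1 (NOXA), a partner of MCL1, was at 36.1 and 48.1 with 0.41 (0.28 to 0.55). Among other anti-apoptotic genes only Bcl2l2 (BCL-W) had enough UMIs, with 19 neonatal and 138 adult UMIs and a ratio of 1.78 (1.09 to 2.56). Of 12 genes of the caspase pathway, 1 was higher and 0 were lower, beside 6.49% and 11.0% of all genes. That gene was the death receptor Fas, at 1.95 and 5.83 with a ratio of 1.58 (1.04 to 2.17).

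Between the classes, 4 of the other BH3-only genes had enough UMIs in each library. In neonatal cells 0 were called, where 2.41% of all genes were higher and 3.69% lower. In adult cells 1 was lower, where 3.65% of all genes were, and 0 were higher, where 8.35% were. The lower gene was Bmf, at 11.8 in Vpreb3+ and 6.85 in Cr2+Fcer2a+ cells with a log2 ratio of -0.78 (-1.52 to 0.04). The effector Bak1 was at 13.2 and 19.9 in the adult classes, a ratio of 0.60 (-0.07 to 1.34). Fas was at 11.8 and 6.21, a ratio of -0.93 (-1.67 to -0.10). The intervals of Bmf and Bak1 hold 0, and Bmf, Bak1 and Fas each rest on fewer than 20 UMIs in adult Vpreb3+ cells. The listed other anti-apoptotic genes, effectors and BH3-only genes were then added to the sums. The pro- to anti-apoptotic ratio over all cells was 0.343 in neonatal and 0.402 in adult cells, a log2 difference of 0.23 (0.18 to 0.28).

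The members lie on 8 chromosomes in GRCm38, all as protein-coding genes. Bcl2 is at chr1:106538178-106714274, Mcl1 at chr3:95658788-95663176 and Tnfrsf13c at chr15:82221743-82224369. Bcl2l1 at chr2:152780668-152831728 and Bcl2l11 at chr2:128126038-128162547 share a chromosome, as do Bcl2a1d at chr9:88723285-88731914 and Bcl2a1b at chr9:89199209-89207827. Bax is at chr7:45461697-45466898, Tnfrsf13b at chr11:61126755-61149372 and Tnfrsf17 at chr16:11313812-11320074.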

How the data were processed

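Live sorted heart B cells were sequenced as 1 library per age. The authors aligned reads to mm10 with Cell Ranger (3.0.2 per the file headers, another version in their methods) and the UMI counts they deposited are raw, for every droplet barcode. Rows for 3 antibodies held 3 neonatal and 2 adult UMIs and were not used. Cells were selected, classed and summed here with Python 3.11.15, numpy 2.4.6, pandas 2.3.3 and scipy 1.17.1, and figures were drawn with matplotlib 3.10.9. Level intervals are Poisson, shares are exact binomial (Clopper-Pearson) and ratios are conditional binomial, all at 95%, and the limit for a count of 0 is 3 counts of the total. Ratios of 2 gene sums have exact conditional odds ratio intervals. UMIs of each cell were drawn without replacement for thinning to 2000. Free RNA was taken from barcodes of ranks 45000 to 90000 by UMIs. Gene positions and transcripts are from GENCODE for GRCm38, in which 99.6% of the gene IDs were found. Ratios were tested on simulated data for adult over neonatal, all cells, with 200 of 9829 genes changed. The right sign came out for 100% of the changed genes. Intervals held the true value for 94.5% of changed and 95.5% of unchanged genes. The simulated counts were Poisson, as the intervals assume, so coverage near 95% was built in. UMIs gathered in few cells, as for Bcl2a1b, were not simulated. All 10 members are named, and from other lists those with at least 100 UMIs and a 1.5-fold difference, or a value set beside them. The members and lists were chosen with earlier results of these data known. Depth limits each value through the number of UMIs, so scarce genes have wide intervals.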

Additional observations from a re-analysis of the deposited data

Results flagged for a closer look

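The change from Vpreb3+ to Cr2+Fcer2a+ cells went in opposite directions in the libraries for Tnfrsf13b, with a log2 ratio of -0.39 in neonatal and 0.19 in adult cells. The ratio of pro- to anti-apoptotic UMIs also went in opposite directions, by 0.14 in neonatal and -0.20 in adult cells. With 1 library per age, neither difference between the libraries was tested, and the interval holds 0 for Tnfrsf13b in adult cells and for the ratio in neonatal cells. The adult change in the ratio of pro- to anti-apoptotic UMIs shrank without cells of at least 10 Jchain UMIs. The neonatal change in that ratio turned negative in cells with a lower share of dissociation transcripts.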

How the results depend on the processing

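With 1 library per age, no setting measures the spread between mice or libraries, and no library could be left out. No paired analysis was possible because each age has 1 library and the labels give no replicate numbers. Over 17 alternatives, the number of members higher in the adult library stayed at 3, except for 2 in cells with at most 5% mitochondrial UMIs. That limit kept only 60 neonatal and 156 adult cells. The 2 higher members were then Bcl2, with a log2 ratio of 1.33, and Tnfrsf13c, with 0.605. Bcl2a1b and Bcl2a1d were not among them. The ratio of Mcl1 ranged from -0.87 to -0.71 and that of Bcl2 from 1.07 to 1.33 over these alternatives.

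The number of members lower in the adult library was 1 instead of 2 with at least 5000 UMIs, with cells thinned to 2000 UMIs, without the 5% of cells with most UMIs, without cells with other cell type markers, with neonatal male cells and with a lower share of dissociation transcripts. In each of these Mcl1 was still lower, and Bcl2l1 had fewer than 100 UMIs. With at most 5% mitochondrial UMIs the log2 ratio turned to 1.07 for Bcl2l1, -0.70 for Bcl2a1b and -0.0788 for Bcl2a1d. The 2 lower members were then Mcl1 and Bcl2a1b. Between the adult classes the ratio of Bcl2a1d turned to -0.29. In these cells the pro- to anti-apoptotic difference was 0.46 between the libraries, -0.78 between the neonatal and -1.29 between the adult classes. The members higher and lower in neonatal Cr2+Fcer2a+ cells were then 0 and 0, and 1 was lower in adult ones. The limit left only 22 Vpreb3+ and 5 Cr2+Fcer2a+ cells in the neonatal library, and 12 and 61 in the adult library. Between these neonatal classes the ratio was 0.716 for Bcl2 and -2.57 for Tnfrsf13c, which were not counted for want of 100 UMIs.

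With thinned cells, which left 46 neonatal Cr2+Fcer2a+ cells, 0 members were higher in them and 1 in the adult ones. Between the neonatal classes the log2 ratio was at least 0.716 for Bcl2 and at least 1.02 for Bcl2a1b in every alternative. With thinned cells Bcl2 and Bcl2a1b thus still differed by more than 1.5-fold, and they were not counted for want of 100 UMIs. Without Mcl1 the pro- to anti-apoptotic difference was -1.19 between the libraries, -1.20 between the neonatal and -0.71 between the adult classes. Between the neonatal classes it was 0.32 without cells with other cell type markers and -0.0761 with a lower share of dissociation transcripts. Leaving out Mcl1, the split by dissociation transcripts, the marker filter without Pecam1 and that of Jchain cells were chosen after seeing the data. The causes of these changes were not tested.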
